A study of Mus musculus with 9 samples.

Results

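The 9 genes described here are structural and stretch-response genes of developing skeletal muscle or of the heart: the myosin heavy chains Myh3 and Myh8, the myosin light chain Myl4, the thin filament genes Actc1 and Tnnt2, the cytoskeletal and surface genes Nes and Ncam1, and the stretch-response genes Ankrd1 and Csrp3. They were chosen by name for these roles, with earlier results of these data known, and all 9 were among the 13116 genes of the expression table and among the 13089 that were tested. The study sequenced polyadenylated RNA of quadriceps from 9 male mice aged 18 months, 3 in each of 3 groups. KO_PBS mice were GAA KO, lacking the lysosomal enzyme acid alpha-glucosidase (the mouse model of Pompe disease), and received PBS. KO_secGAA mice were of the same genotype and received the vector AAV8-sp7-delta8-hGAAco, which gives transgenic expression of a secreted GAA. WT_PBS mice were wild type and received PBS. All 9 mice had been injected into the tail vein at 9 months of age, so both KO groups had 9 months of disease before the injection and the tissue was taken 9 months after it. The labels give neither the Gaa allele nor the strain, and name no promoter for the vector. No vector-treated wild-type group was analysed here, so KO_secGAA compared with WT_PBS differs in genotype and in vector together.

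In developing skeletal muscle the sarcomere is first built from embryonic and cardiac isoforms of myosin, actin and troponin, which are replaced around and after birth by the adult isoforms. Injured adult fibres that regenerate pass through a similar sequence, and denervated or stretched fibres raise some of the same genes, so embryonic myosin, nestin and NCAM are common histological markers of regenerating or denervated fibres. Ankrd1 and Csrp3 encode proteins that bind the titin filament or the Z-disc and shuttle to the nucleus, and both are known to rise in muscle under mechanical load.

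The libraries held 9299156 to 14355201 reads in KO_PBS, 10495715 to 14406655 in KO_secGAA and 15477523 to 15957106 in WT_PBS, so 1 read was worth 0.0652 to 0.0922 normalized counts, the unit of every level below unless another is named. Gaa, the targeted gene, stood at 17.8, 14.5 and 14.02 normalized counts in KO_PBS mice 1 to 3, at 15.1, 15.6 and 16.6 in KO_secGAA and at 296, 128.6 and 264.1 in WT_PBS; it was lower in KO_PBS than in WT_PBS by a log2 change of -3.77 ± 0.26 (SE; limma adjusted p = 3.1e-05). All 6 KO mice lay below all 3 wild-type mice, which goes with their genotype labels. Gaa still had 152 to 272 reads per KO_PBS library. Whether reads of the vector's GAA could be counted as Gaa is not given in the sources used here. The tissue label held: the 9 skeletal fibre marker genes of the check summed to between 110900 and 126500 normalized counts in KO_PBS, 133000 to 148600 in KO_secGAA and 150000 to 180400 in WT_PBS, and 5 of them were lower in KO_PBS than in WT_PBS (0 to 6 with each mouse left out, 8 by each of edgeR, DESeq2 and voom, and 0 without scaling factors or under quantile normalization). Annotated genes on the opposite strand overlap Myl4 (4 genes), Actc1 (1) and Ncam1 (1), and the sources used here do not say if counting took account of strand, so reads of such pairs cannot be told apart.

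Promoters are shown for 4 of the 9 genes because each holds a short motif that is known from muscle promoters. The sequences are the 250 bases before the start site in RefSeq's annotation of GRCm38.p6, printed 5′ to 3′ on the gene's strand: Actc1 at chr2:114052876-114053125 (minus strand), Tnnt2 at chr1:135836084-135836333 (plus strand), Ankrd1 at chr19:36119845-36120094 (minus strand) and Myh8 at chr11:67276874-67277123 (plus strand). Acta1, the adult skeletal actin gene at chr8:123894776-123895025 (minus strand), stands beside Actc1 for comparison. Capitals mark the CArG box, the binding motif of serum response factor (Actc1 and Acta1), the MCAT motif CATTCC or GGAATG, bound by TEAD factors (Tnnt2, Ankrd1 and Acta1), and the MEF2 box (Myh8).
Actc1: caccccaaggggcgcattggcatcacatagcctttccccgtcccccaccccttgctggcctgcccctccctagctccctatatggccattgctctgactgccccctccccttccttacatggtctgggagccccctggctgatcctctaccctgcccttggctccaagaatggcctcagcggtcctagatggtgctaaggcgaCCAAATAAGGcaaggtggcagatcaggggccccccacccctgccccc
Acta1: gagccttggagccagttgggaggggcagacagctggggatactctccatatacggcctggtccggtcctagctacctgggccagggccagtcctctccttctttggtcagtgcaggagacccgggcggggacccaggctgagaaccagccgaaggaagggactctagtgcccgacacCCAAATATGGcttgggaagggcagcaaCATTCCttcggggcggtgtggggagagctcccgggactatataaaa
Tnnt2: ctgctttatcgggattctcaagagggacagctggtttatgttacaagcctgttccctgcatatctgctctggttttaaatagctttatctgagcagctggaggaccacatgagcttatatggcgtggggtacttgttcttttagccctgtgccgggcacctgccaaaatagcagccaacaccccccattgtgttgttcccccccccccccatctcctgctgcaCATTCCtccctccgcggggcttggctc
Ankrd1: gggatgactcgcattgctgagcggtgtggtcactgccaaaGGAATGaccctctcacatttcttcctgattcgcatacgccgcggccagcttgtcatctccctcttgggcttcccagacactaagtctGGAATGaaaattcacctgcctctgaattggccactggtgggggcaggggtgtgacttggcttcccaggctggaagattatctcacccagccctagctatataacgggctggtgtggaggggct
Myh8: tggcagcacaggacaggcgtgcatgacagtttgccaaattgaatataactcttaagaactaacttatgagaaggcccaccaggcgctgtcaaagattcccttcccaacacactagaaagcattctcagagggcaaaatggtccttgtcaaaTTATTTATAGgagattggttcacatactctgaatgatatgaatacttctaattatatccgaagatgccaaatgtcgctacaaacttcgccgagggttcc

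RefSeq windows were found for 8 of the 9 genes, for Tnnt2 and Csrp3 at more than 1 start site, and both strands were searched. By the GENCODE coordinates given below, the windows shown for Actc1 and Ankrd1 lie inside the gene. The distances that follow are therefore to RefSeq's start sites only. The CArG box of Actc1 began 47 bases before the start and that of Acta1 73 bases before it; 1 of the 8 genes held this motif, against 1.47% of 32851 mouse promoter windows of the same length. The MCAT motif was found in 2 of the 8, in Tnnt2 at 27 bases and in Ankrd1 at 210 and 123 bases before the start, against 12.6% of windows. The MEF2 box was found in Myh8 at 99 bases before the start, against 2.92% of windows. The E-box CANNTG, the motif of the MyoD family, was found in 5 of the 8, against 66.2% of windows, and is not capitalised. These matches describe the letters in these windows and were not tied to any change below.

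Of the 9 genes, 7 rose in KO_PBS compared with WT_PBS (limma, Benjamini-Hochberg adjusted p under 0.05 over all genes tested), 2 did not pass and 0 fell. In this comparison 10.9% of all genes tested rose, 11% fell and 21.9% changed in either direction. The 7 that rose were Myl4, Actc1, Tnnt2, Myh3, Nes, Ncam1 and Ankrd1, and in the same 7 each KO_PBS mouse lay above each WT_PBS mouse, which was so of 20.7% of all genes. The median log2 fold change of the 9 was 1.63, against 0.01 over all genes. For the count of 0 that fell, 0 were lower at an unadjusted p under 0.05 as well, and edgeR, DESeq2 and limma voom on the recovered reads called 6, 7 and 7 higher and 0 lower. All 9 genes had 29 reads or more in every wild-type mouse, so the change was one of level and not of appearance from 0. The libraries' scaling factors bear on these shares: without them the median of all genes lay at log2 0.31 in KO_PBS against WT_PBS, and 89.6% of the genes that changed were higher, in place of 49.9%, while the same 7 of the 9 passed. In this bulk tissue RNA, a change in the number of fibres or cells that express a gene and a change in RNA per cell cannot be told apart.

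In KO_secGAA compared with KO_PBS, 3 of the 9 fell (Actc1, Nes and Ncam1), 6 did not pass and 0 rose, where 2.31% of all genes fell, 1.37% rose and 3.67% changed in either direction. At an unadjusted p under 0.05, 5 were lower and 0 higher; edgeR, DESeq2 and voom called 3, 4 and 3 lower and 0 higher. In 4 of the 9, the same 3 genes and Myh3, each KO_secGAA mouse lay below each KO_PBS mouse, against 12.3% of all genes; in 0 each lay above, against 11.7%. Without scaling factors 10.6% of all genes that changed were higher, in place of 37.2%. In KO_secGAA compared with WT_PBS, 3 rose (Myl4, Nes and Ncam1), where 1.83% of all genes rose and 3.72% changed in either direction, 6 did not pass and 0 fell. At an unadjusted p under 0.05, 6 were higher and 1, Actc1, lower; edgeR called 3 higher and 0 lower, DESeq2 6 higher and 1 lower and voom 1 higher and 0 lower. Of the 3, Nes lost its call without any 1 of the 9 mice, Ncam1 without WT_PBS 2, WT_PBS 3 or any KO_secGAA mouse, and Myl4 without KO_secGAA 2. Without scaling factors 5 of the 9 were higher and 86.2% of all genes that changed were, in place of 49.1%. In 6 of the 9, Myl4, Tnnt2, Nes, Ncam1, Ankrd1 and Csrp3, each KO_secGAA mouse lay above each WT_PBS mouse, against 13.5% of all genes. Nes and Ncam1 were the 2 of the 9 whose groups did not overlap at all in the order KO_PBS above KO_secGAA above WT_PBS, an order found in 2.88% of all genes. The 3 comparisons share their groups in pairs, so their counts are not independent of each other.

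**Figure D1:**
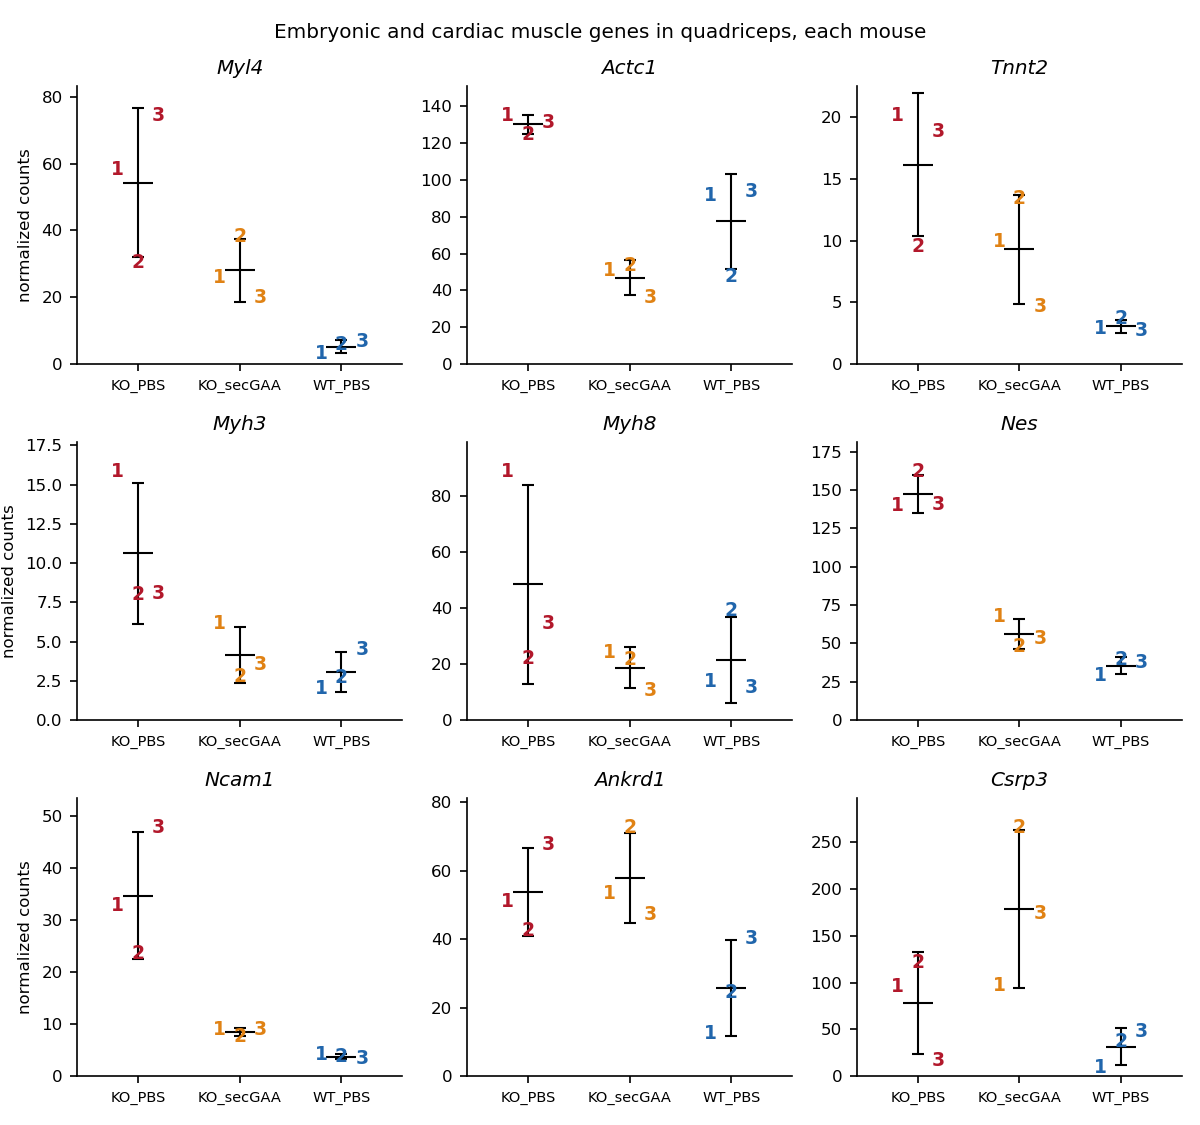
Normalized counts (y axis, linear, from 0) of each of the 9 genes in each mouse, with the groups KO_PBS, KO_secGAA and WT_PBS from left to right; digits are the mouse's number within its group, horizontal bars the mean and error bars the SD (n = 3). Nes and Ncam1 separate all 3 groups, Actc1 is low in KO_secGAA, and Csrp3 is highest in KO_secGAA with KO_PBS mouse 3 at 16.6.

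**Figure D2:**
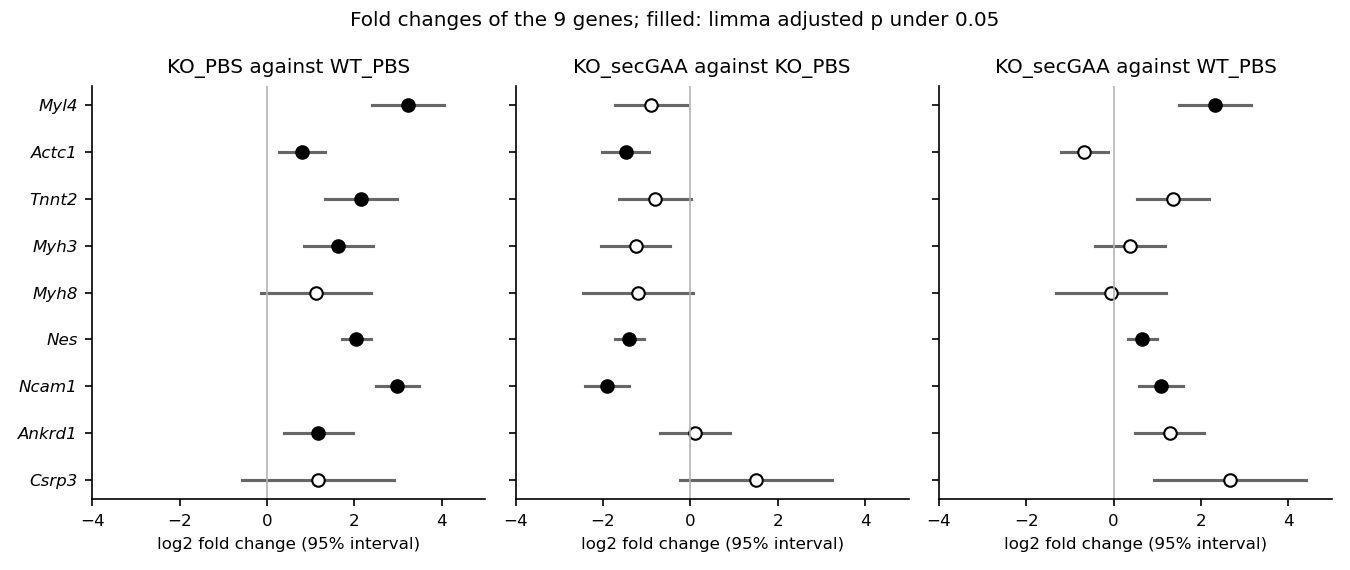
Log2 fold changes (x axis) of the 9 genes with 95% intervals from limma in the 3 comparisons; filled points passed an adjusted p of 0.05. Filled points number 7 on the left, 3 in the middle and 3 on the right.

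Myh3 encodes the embryonic myosin heavy chain, made early in muscle development, and lies at chr11:67078300-67102291 (plus strand, ENSMUSG00000020908). It stood at 15.8, 7.998 and 8.044 normalized counts in the KO_PBS mice, at 6.13, 2.75 and 3.57 in KO_secGAA and at 2.02, 2.71 and 4.48 in WT_PBS. All 3 KO_PBS mice were above every mouse of the other groups, and the KO_secGAA and WT_PBS mice overlapped. It rose 3.09-fold in KO_PBS compared with WT_PBS (log2 1.63 ± 0.35 SE, limma adjusted p = 0.01). In KO_secGAA it was lower than in KO_PBS by a log2 difference of -1.25 (95% interval -2.04 to -0.46), which did not pass over all genes (limma adjusted p = 0.0907) but did by DESeq2 (0.0172) and by limma without scaling factors (0.04), and its difference from WT_PBS was 0.37 (-0.42 to 1.17; limma adjusted p = 0.579). The values rest on 87 to 242 reads per KO_PBS library, 31 to 66 in KO_secGAA and 29 to 60 in WT_PBS, and per kilobase of transcript Myh3 was the lowest of the 9 genes in each group, at 1.76 normalized counts in KO_PBS, 0.688 in KO_secGAA and 0.509 in WT_PBS.

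Myh8 encodes the perinatal (neonatal) myosin heavy chain, which follows Myh3 in development, and lies in the same gene cluster at chr11:67277124-67308634 (plus strand, ENSMUSG00000055775). It stood at 88.6, 22.0 and 34.6 normalized counts in KO_PBS, at 24.0, 21.7 and 10.4 in KO_secGAA and at 13.7, 39.0 and 11.5 in WT_PBS. The groups overlapped, and neither KO_PBS compared with WT_PBS (log2 1.13, 95% interval -0.13 to 2.38, limma adjusted p = 0.184) nor KO_secGAA compared with KO_PBS (-1.19, -2.45 to 0.07, limma adjusted p = 0.286) passed. The interval of the first comparison reaches 2.38, so these 3 mice a group do not show that Myh8 kept its wild-type level. The mouse with the highest Myh8 in each group, KO_PBS 1, KO_secGAA 1 and WT_PBS 2, also had that group's highest level of Myh2 and Myh1, adult fast myosin genes of the same cluster. Myh2 stood at 2061, 1682 and 2345 normalized counts in those 3 mice, and at 820 to 1473 in the other KO_PBS mice, 969 to 1236 in the other KO_secGAA mice and 326 to 988 in the other WT_PBS mice. The adult fast myosin gene Myh4, which lies between Myh1 and Myh8, shared this pattern only in KO_PBS. It was highest in mouse 3 of KO_secGAA (47560, against 41100 in mouse 1) and lowest in mouse 2 of WT_PBS (38850). Reads can be shared between these paralogs: of the 61-base windows of the Myh8 transcript, the length of the reads, 17.4% also occur in a transcript of another gene, most often Myh2, against 3.01% for Myh3. How much of the Myh8 level comes from such reads was not tested, and its value is uncertain for that reason.

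Myl4 encodes the embryonic and atrial essential light chain of myosin (chr11:104550663-104595753, plus strand, ENSMUSG00000061086), and had the largest fold change of the 9 in KO_PBS. It stood at 58.4, 30.4 and 74.3 normalized counts in KO_PBS, at 26.0, 38.2 and 19.9 in KO_secGAA and at 3.05, 5.87 and 6.85 in WT_PBS. All 6 KO mice were above all 3 wild-type mice, and the KO_PBS and KO_secGAA mice overlapped. Myl4 rose 9.36-fold in KO_PBS (log2 3.23 ± 0.37 SE, limma adjusted p = 0.000384) and 5.01-fold in KO_secGAA (log2 2.33 ± 0.37, limma adjusted p = 0.012), both compared with WT_PBS. Without KO_secGAA mouse 2 the second of these did not pass (limma adjusted p = 0.0522). Between KO_secGAA and KO_PBS the log2 difference of -0.90 did not pass (95% interval -1.73 to -0.07, limma adjusted p = 0.223).

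Actc1 encodes alpha-cardiac actin, the main sarcomeric actin of the heart and of foetal skeletal muscle (chr2:114047282-114053548, minus strand, ENSMUSG00000068614). It stood at 134.9, 124.8 and 131 normalized counts in KO_PBS, at 50.8, 53.8 and 36.3 in KO_secGAA and at 91.4, 47.7 and 93.7 in WT_PBS. The 3 KO_PBS mice were above all others and close together, while KO_secGAA lay in and below the wild-type range. Actc1 rose 1.75-fold in KO_PBS compared with WT_PBS (log2 0.81 ± 0.24 SE, limma adjusted p = 0.0382), a call that was lost when WT_PBS 2, KO_secGAA 1 or any of the 3 KO_PBS mice was left out (limma adjusted p 0.0507 to 0.0879). It fell 2.79-fold in KO_secGAA compared with KO_PBS (log2 -1.48 ± 0.24, limma adjusted p = 0.0117), and this call held with each mouse left out in turn. Against WT_PBS, KO_secGAA was lower by a log2 difference of -0.68 (95% interval -1.21 to -0.14) that did not pass (limma adjusted p = 0.141), but did without WT_PBS mouse 2 (0.0221 by limma).

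Tnnt2 encodes cardiac troponin T, which ties the troponin complex to tropomyosin and is also made in embryonic skeletal muscle (chr1:135836354-135852260, plus strand, ENSMUSG00000026414). It stood at 20.1, 9.496 and 18.9 normalized counts in KO_PBS, at 9.91, 13.4 and 4.65 in KO_secGAA and at 2.85, 3.69 and 2.70 in WT_PBS. All 6 KO mice lay above the wild-type mice and the KO groups overlapped. Tnnt2 rose 4.47-fold in KO_PBS compared with WT_PBS (log2 2.16 ± 0.37 SE, limma adjusted p = 0.0031). The differences of KO_secGAA from KO_PBS (log2 -0.81, 95% interval -1.63 to 0.02, limma adjusted p = 0.268) and from WT_PBS (1.35, 0.53 to 2.18, limma adjusted p = 0.0752) did not pass, though the second did without KO_secGAA mouse 3 (0.0229 by limma).

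The developmental isoforms stayed a small part of their families, which was described by setting each beside its most abundant adult fast counterpart, with values divided by transcript length. Actc1 made up 0.504 ± 0.059% of Actc1 and Acta1 together in KO_PBS, 0.191 ± 0.04% in KO_secGAA and 0.222 ± 0.068% in WT_PBS (SD, n = 3 each). Myl4 made up 0.858 ± 0.34% of Myl4 and the adult fast light chain Myl1 in KO_PBS, 0.349 ± 0.11% in KO_secGAA and 0.0571 ± 0.027% in WT_PBS. Tnnt2 made up 0.0967 ± 0.033% of Tnnt2 and the adult fast troponin T gene Tnnt3 in KO_PBS, 0.0421 ± 0.02% in KO_secGAA and 0.0127 ± 0.0033% in WT_PBS. The KO_PBS shares lay above the WT_PBS shares without overlap in all 3 of these pairs.

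For Myh3 the share of Myh3 and the adult fast myosin Myh4 was 0.034 ± 0.013% in KO_PBS, 0.00989 ± 0.0043% in KO_secGAA and 0.0065 ± 0.0027% in WT_PBS, again with KO_PBS above WT_PBS. For Myh8 the share of Myh8 and Myh4 was 0.151 ± 0.1% in KO_PBS, 0.045 ± 0.02% in KO_secGAA and 0.0483 ± 0.043% in WT_PBS, and KO_PBS and WT_PBS overlapped. The KO_secGAA shares lay below those of KO_PBS without overlap in all 5 pairs, and above those of WT_PBS without overlap for Myl4 and Tnnt2. The margin to KO_PBS was narrow for Tnnt2 (0.057% in KO_secGAA 2, 0.059% in KO_PBS 2) and Myl4 (0.463% in KO_secGAA 2, 0.48% in KO_PBS 2). Myl4, Tnnt2 and Myh8 themselves overlapped between these KO groups. Their adult partners Myl1, Tnnt3 and Myh4 were higher in each KO_secGAA mouse than in each KO_PBS mouse (log2 0.35, 0.44 and 0.44), without passing. Each share was read in 3 mice a group, where an exact two-sided permutation test cannot go below p = 0.1, so no p is given. Part of the difference between KO_PBS and WT_PBS also lies in the adult genes. Of these, Myl1 (log2 -0.62 ± 0.15 SE, limma adjusted p = 0.0176) and Tnnt3 (-0.56 ± 0.17, limma adjusted p = 0.0441) were lower in KO_PBS than in WT_PBS. The call of Myl1 was lost without WT_PBS 3, KO_PBS 1 or KO_PBS 2 (limma adjusted p up to 0.0604) and that of Tnnt3 without any library except WT_PBS 2 (up to 0.142 by limma). Under quantile normalization neither passed, and the sign of Tnnt3 turned to 0.21. Acta1 (log2 -0.42 ± 0.18, limma adjusted p = 0.131) and Myh4 (-0.63 ± 0.22, limma adjusted p = 0.0727) did not pass, but both were called lower by edgeR, DESeq2 and voom and by limma with the filter at 5 (lowest adjusted p 0.000486 for Acta1 and 0.000108 for Myh4), and Myh4 also without WT_PBS 2 (0.0381 by limma). Of the Myl1 windows, 28.1% also occur in the pseudogene Mylf-ps, and of the Myh4 windows 14.5% in other genes, so these shares carry the authors' way of splitting such reads.

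**Figure D3:**
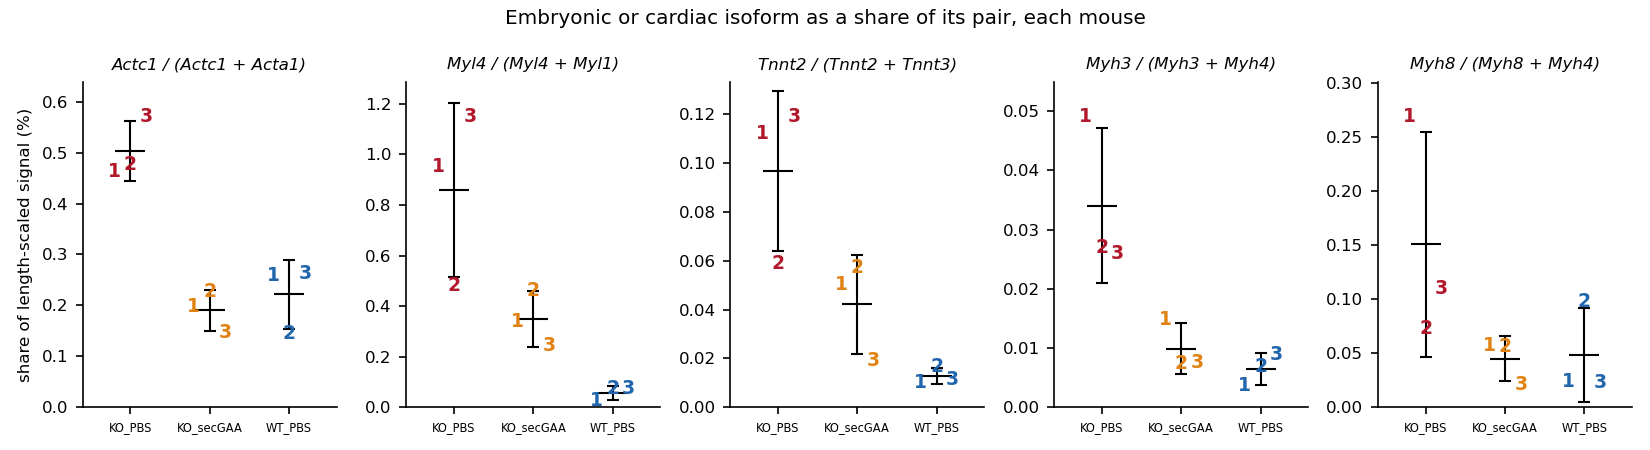
Share (y axis, percent, linear from 0) that the embryonic or cardiac isoform made up of itself and its adult fast counterpart, from normalized counts divided by transcript length, in each mouse; digits are mouse numbers, bars the mean and SD (n = 3). KO_PBS lies highest in each panel and overlaps WT_PBS in the Myh8 panel.

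Nes encodes nestin, an intermediate filament protein of myoblasts, regenerating fibres and the neuromuscular junction (chr3:87971078-87980451, plus strand, ENSMUSG00000004891). It stood at 140, 161.9 and 140.7 normalized counts in KO_PBS, at 67.3, 48.2 and 53.1 in KO_secGAA and at 29.2, 39.7 and 37.4 in WT_PBS. No group overlapped another. Nes rose 4.15-fold in KO_PBS compared with WT_PBS (log2 2.05 ± 0.15 SE, limma adjusted p = 3.47e-05) and fell 2.63-fold in KO_secGAA compared with KO_PBS (log2 -1.40 ± 0.15, limma adjusted p = 0.00229). Compared with WT_PBS it was 1.58-fold higher in KO_secGAA (log2 0.66 ± 0.15, limma adjusted p = 0.0408). That last call was lost when any 1 of the 9 mice was left out (limma adjusted p 0.0538 to 0.109), while the other calls of Nes held each time.

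Ncam1 encodes the neural cell adhesion molecule, present on myoblasts, satellite cells, Schwann cells and denervated fibres and confined to the synapse in innervated adult fibres (chr9:49502136-49798925, minus strand, ENSMUSG00000039542). It stood at 32.7, 23.5 and 47.8 normalized counts in KO_PBS, at 8.99, 7.65 and 8.97 in KO_secGAA and at 4.15, 3.83 and 3.29 in WT_PBS. The groups did not overlap, and the KO_PBS mice differed among themselves by 2.03-fold, against 1.17-fold in KO_secGAA and 1.26-fold in WT_PBS. Ncam1 rose 7.96-fold in KO_PBS compared with WT_PBS (log2 2.99 ± 0.22 SE, limma adjusted p = 3.87e-05) and fell 3.75-fold in KO_secGAA compared with KO_PBS (log2 -1.91 ± 0.22, limma adjusted p = 0.00313). These calls held with each mouse left out. The 2.12-fold difference between KO_secGAA and WT_PBS (log2 1.09 ± 0.22, limma adjusted p = 0.0302) was lost without WT_PBS 2, WT_PBS 3 or any of the 3 KO_secGAA mice (limma adjusted p up to 0.117).

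Markers of cells that also carry nestin or NCAM were read beside these values. Of all genes tested, 10.9% rose and 11% fell in KO_PBS compared with WT_PBS, and 2.31% fell in KO_secGAA compared with KO_PBS. Of 6 Schwann cell markers tested, 0 passed in KO_PBS compared with WT_PBS (0 also at an unadjusted p under 0.05 and by edgeR, DESeq2 and voom), and their summed level was 31.7 to 39.9 normalized counts in KO_PBS, 28.3 to 33.2 in KO_secGAA and 26.3 to 42.1 in WT_PBS. Of 7 satellite cell markers, 1 rose, Cdh15 (log2 0.36 ± 0.11 SE, limma adjusted p = 0.046, lost without any library except KO_secGAA 2 or 3), with summed levels of 91.3 to 121.8 in KO_PBS, 79.4 to 92.0 in KO_secGAA and 74.7 to 108.9 in WT_PBS. Of 8 endothelial markers 3 fell, with sums of 120.4 to 150.6 in KO_PBS, 166.6 to 194.2 in KO_secGAA and 163.2 to 202 in WT_PBS. Of 10 smooth muscle and pericyte markers 1 rose and 1 fell. Of 7 proliferation markers listed only 2 were tested. Ube2c fell (means 5.48 in KO_PBS and 10.4 in WT_PBS). Mki67 was higher in each KO_PBS mouse than in each WT_PBS mouse (means 0.743 and 0.294) and did not pass. Its values rest on 6 to 11 reads per KO_PBS library and 3 to 5 in WT_PBS. Of 9 macrophage markers 3 rose in KO_PBS compared with WT_PBS, and Cd163 alone had a lower mean in KO_PBS (7.77) than in WT_PBS (9.89). In KO_secGAA compared with KO_PBS 1 of the 9 fell (0 to 1 with each mouse left out). The macrophage sums were 230.7 to 335.5 in KO_PBS, 129.5 to 269.5 in KO_secGAA and 93.0 to 153.8 in WT_PBS. These sums overlapped between KO_secGAA and each of the other groups. Of the markers that rose, Cd68 and Mpeg1 separated all 3 groups in the same order as Nes and Ncam1. Cd68 averaged 13.3 in KO_PBS, 6.55 in KO_secGAA and 3.18 in WT_PBS, and Mpeg1 18.5, 10.9 and 3.89. The margin of Mpeg1 was narrow between KO_PBS 1 (13.2) and KO_secGAA 1 (13.1). Lyz2 and the other macrophage markers overlapped between KO_PBS and KO_secGAA. Of 8 fibroblast markers 1 rose, Lum (1 to 5 of 8 with each mouse left out and 4 without scaling factors), and in KO_secGAA compared with KO_PBS 2 fell, Lum and Col1a2. Lum averaged 62.0 normalized counts in KO_PBS, 26.0 in KO_secGAA and 20.6 in WT_PBS, and its KO_secGAA and WT_PBS mice overlapped. Of the other fibroblast markers, Dpt and Pi16 had lower means in KO_PBS than in WT_PBS and the rest had higher means. The single gene tested for neutrophils and T cells fell. No gene of these lists was at 0 in every library, and the part that any of these cells have in the Nes and Ncam1 levels was not tested.

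Ankrd1 encodes the cardiac ankyrin repeat protein, which binds titin and also acts in the nucleus (chr19:36111961-36120099, minus strand, ENSMUSG00000024803). It stood at 51.1, 42.4 and 67.7 normalized counts in KO_PBS, at 53.4, 72.5 and 47.3 in KO_secGAA and at 12.4, 24.4 and 40.2 in WT_PBS. The KO groups covered the same range, and every KO mouse lay above every wild-type mouse, KO_PBS 2 by a narrow margin over WT_PBS 3. Ankrd1 rose 2.26-fold in KO_PBS compared with WT_PBS (log2 1.18 ± 0.36 SE, limma adjusted p = 0.0409). The call was lost without WT_PBS 1, WT_PBS 2, KO_secGAA 1 or any of the 3 KO_PBS mice (limma adjusted p up to 0.124) and with edgeR. Between KO_secGAA and KO_PBS the log2 difference was 0.11 with a 95% interval of -0.69 to 0.90 (limma adjusted p = 0.908), an interval that spans changes in both directions. KO_secGAA compared with WT_PBS gave 1.28 (0.49 to 2.08), which did not pass (limma adjusted p = 0.078), but did without WT_PBS mouse 3 (0.0499 by limma).

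Csrp3 encodes muscle LIM protein, a Z-disc protein of the heart and of slow and loaded fibres (chr7:48830398-48848033, minus strand, ENSMUSG00000030470). It stood at 95.3, 121.6 and 16.6 normalized counts in KO_PBS, at 97.2, 265.4 and 173.3 in KO_secGAA and at 9.22, 36.6 and 48.2 in WT_PBS. Its 7.32-fold range among the KO_PBS mice was the widest of any of the 9 genes in any group, with KO_PBS 3 inside the wild-type range, and all KO_secGAA mice lay above all wild-type mice. None of its comparisons passed: the log2 difference was 1.17 (95% interval -0.57 to 2.91, limma adjusted p = 0.321) for KO_PBS against WT_PBS, 1.50 (-0.24 to 3.24, limma adjusted p = 0.338) for KO_secGAA against KO_PBS and 2.67 (0.92 to 4.41, limma adjusted p = 0.0909) for KO_secGAA against WT_PBS. Without KO_PBS mouse 3 the last of these passed (0.0437 by limma), and DESeq2 on the recovered reads also called it (0.0455).

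Csrp3 and Ankrd1 were the 2 of the 9 whose mean was higher in KO_secGAA than in KO_PBS, in both without passing the test. Ankrd2, a titin-binding relative of Ankrd1 that is enriched in slow fibres, was picked for its likeness to Csrp3 in these same libraries. That it too was lowest among the KO mice in KO_PBS 3 is therefore no separate observation. It stood at 168.2, 228.5 and 35.9 normalized counts in KO_PBS, 132.4, 261.2 and 258.9 in KO_secGAA and 29.9, 108.9 and 109.7 in WT_PBS, and none of its comparisons passed (limma adjusted p 0.232 to 0.544). The slow myosin gene Myh7 stood at 656.3, 101.3 and 116.3 in KO_PBS, 94.1, 15.6 and 203.3 in KO_secGAA and 0.651, 32.9 and 1.22 in WT_PBS. Of 8 slow fibre markers 6 rose in KO_PBS compared with WT_PBS (2 to 7 of 8 with each mouse left out and 3 by voom), where 10.9% of all genes rose. In KO_secGAA compared with WT_PBS 0 of the 8 passed (smallest limma adjusted p 0.0567), though 6 were higher at an unadjusted p under 0.05. Their sum was 544.2 to 2302 normalized counts in KO_PBS, 279.1 to 958.5 in KO_secGAA and 50.5 to 491.2 in WT_PBS, so KO_secGAA overlapped both other groups. The part of fibre type in the Csrp3 and Ankrd1 levels was not tested.

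**Figure D4:**
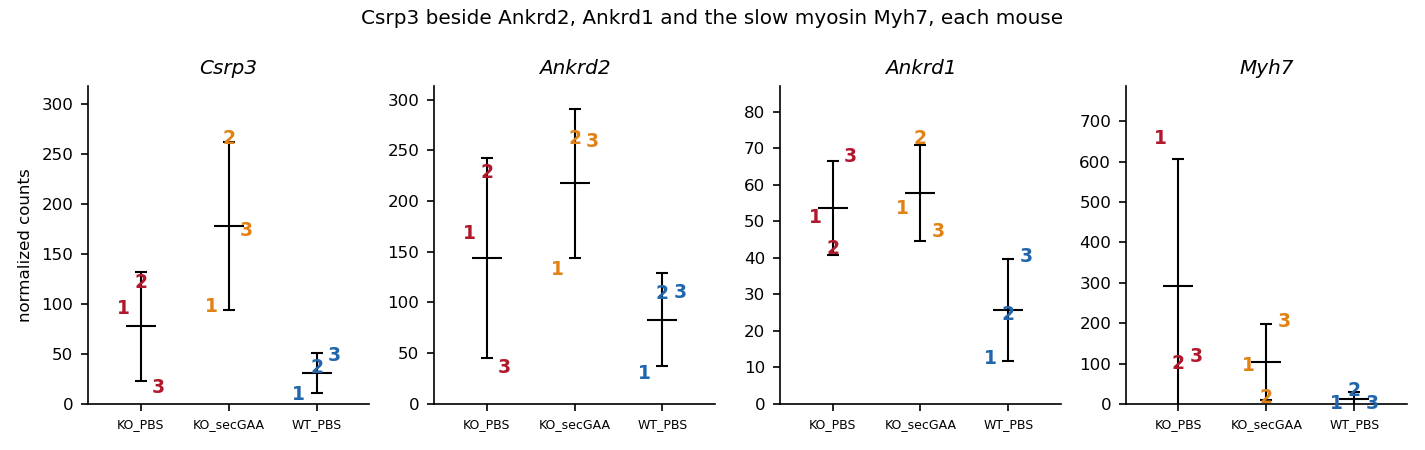
Normalized counts (y axes, linear from 0) of Csrp3, its nearest named neighbour by pattern Ankrd2, Ankrd1 and the slow myosin Myh7 in each mouse; digits are mouse numbers, bars the mean and SD (n = 3), with SD bars that pass below 0 ended at the axis. KO_PBS mouse 3 is lowest among the KO mice for Csrp3 and Ankrd2.

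The level of the 9 genes was compared per kilobase of transcript, since longer transcripts give more reads. In KO_PBS the means ran from Actc1 (88.4 normalized counts per kilobase) and Csrp3 (86.6) through Myl4 (57.6), Ankrd1 (26.6), Nes (24.1), Tnnt2 (13.5), Myh8 (7.87) and Ncam1 (5.73) down to Myh3 (1.76). In KO_secGAA Csrp3 (199) came first, then Actc1 (31.9), Myl4 (29.7), Ankrd1 (28.6), Nes (9.17), Tnnt2 (7.77), Myh8 (3.04), Ncam1 (1.41) and Myh3 (0.688). In WT_PBS the order was Actc1 (52.7), Csrp3 (34.9), Ankrd1 (12.7), Nes (5.78), Myl4 (5.57), Myh8 (3.48), Tnnt2 (2.57), Ncam1 (0.621) and Myh3 (0.509). Myl4 thus came after Actc1 and Csrp3 in both KO groups, and after Ankrd1 and Nes as well in wild type. Neighbours such as Actc1, Myl4 and Ankrd1 in KO_secGAA, or Nes and Myl4 in WT_PBS, lay closer than the SD between mice and have no order beyond it.

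The mice of a group were not equally high across the 9 genes. KO_PBS 2 was the lowest KO_PBS mouse for 7 of the 9 genes, the exceptions being Nes and Csrp3, for which it was the highest. KO_PBS 1 was highest for 4 and KO_PBS 3 for 3. In KO_secGAA, mouse 2 was highest for 5 genes, and mouse 3 was highest for 0 and lowest for 5. In WT_PBS, mouse 1 was lowest for 5 genes and mouse 3 highest for 5.

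The tested genes whose pattern lay nearest to each of the 9 were found as those with the smallest root mean square difference over the 9 libraries, on log2 values centred on each gene's WT_PBS mean. Nes lay nearest to Panx1 (0.197), a membrane channel gene, and Vat1 (0.211), and Ncam1 to Fam129b (0.326) and Cdk6 (0.361). Myl4 lay nearest to Gdf15 (0.432) and Trib3 (0.454), both known as stress-response genes. Gdf15 differed from its WT_PBS mean by log2 2.58 in KO_PBS and 2.14 in KO_secGAA, and Trib3 by 3.39 in KO_PBS and 2.86 in KO_secGAA, beside 3.23 in KO_PBS and 2.33 in KO_secGAA for Myl4. Panx1 differed by 1.97 in KO_PBS and 0.88 in KO_secGAA, and Vat1 by 2.23 in KO_PBS and 0.75 in KO_secGAA, beside 2.05 in KO_PBS and 0.66 in KO_secGAA for Nes. The nearest pattern was thus high in both KO groups for Myl4 and lower in KO_secGAA for Nes.

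Tnnt2 lay nearest to Mthfd1l (0.236), a mitochondrial folate enzyme gene, and Plekhh1 (0.318), Actc1 to Gm26782 (0.337) and Mpzl3 (0.343), and Myh3 to Tmem151a (0.328). Ankrd1 lay nearest to Gm19410 (0.183) and the neutral amino acid transporter gene Slc1a4 (0.356). Myh8 (Rab27b, 0.515; Slc25a34, 0.523) and Csrp3 (Gm10036, 0.741; Ankrd2, 0.744) had no close neighbour. Among the 9 themselves the smallest distance was that of Nes and Myh3 (0.471), and Csrp3 was the farthest from any other (Ankrd1, 1.25). The nearest genes were picked for likeness in these same libraries, so their values describe the pattern and test nothing.

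Other genes of the same biology were counted from lists, and each count below is to be read beside the share of all genes tested. In KO_PBS compared with WT_PBS 10.9% of all genes rose and 11% fell. In KO_secGAA compared with KO_PBS 1.37% rose and 2.31% fell, and compared with WT_PBS 1.83% rose and 1.89% fell. Of 25 tested genes of regenerating fibres and embryonic muscle, 18 rose in KO_PBS compared with WT_PBS (13 to 19 with each mouse left out), 0 fell and 7 did not pass, with a median log2 fold change of 1.39; at an unadjusted p under 0.05 22 were higher and 0 lower, and no other tool called a lower gene. Examples were the acetylcholine receptor subunit genes Chrnd (log2 3.51 ± 0.32 SE, limma adjusted p = 0.000106) and Chrna1 (2.07 ± 0.21, limma adjusted p = 0.000186), the transcription factor gene Runx1 (2.16 ± 0.14, limma adjusted p = 2.41e-05) and Mustn1 (1.95 ± 0.21, limma adjusted p = 0.000246). These 4 held with each mouse left out. In KO_secGAA compared with KO_PBS 5 fell (2 to 6 with each mouse left out, 10 by DESeq2 and 10 without scaling factors): Chrnd (log2 -2.43 ± 0.32, limma adjusted p = 0.00497) and Chrna1 (-1.46 ± 0.21, limma adjusted p = 0.00686) held with each mouse left out, while Mustn1 held without WT_PBS 1 or KO_PBS 3, Igf2 without WT_PBS 1 or KO_PBS 2, and Cdh15 without any wild-type mouse or KO_secGAA 3, and each lost its call without any other library (limma adjusted p up to 0.108, 0.136 and 0.0852). Compared with WT_PBS, KO_secGAA had 5 of the 25 higher (2 to 6 with each mouse left out, 10 by DESeq2, 3 by voom and 10 without scaling factors), among them Runx1 (log2 1.67 ± 0.14, limma adjusted p = 0.000499) and Peg3 (1.89 ± 0.24, limma adjusted p = 0.00428), which held with each mouse left out, and Mustn1, Krt18 and Sox11, which did not (limma adjusted p up to 0.114, 0.159 and 0.136).

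Of a list of 25 further cardiac muscle genes, 15 were analysed here; Myl7, Tnni3, Mybpc3, Nppa, Nppb, Ryr2, Mybphl, Corin and Lrrc10 were among those that were not. Of the 15, 5 rose in KO_PBS compared with WT_PBS: the calcium pump regulators Sln (log2 3.73 ± 0.31 SE, limma adjusted p = 6.59e-05) and Pln (1.37 ± 0.27, limma adjusted p = 0.00678), the slow and cardiac calsequestrin Casq2 (1.70 ± 0.26, limma adjusted p = 0.00172), and the popeye domain genes Popdc3 (0.96 ± 0.12, limma adjusted p = 0.000531) and Bves (0.51 ± 0.11, limma adjusted p = 0.0113). Without scaling factors 9 of the 15 rose, and 5 to 8 did with each mouse left out. Hrc fell (log2 -0.27 ± 0.08, limma adjusted p = 0.0322), a call lost without any mouse of the 2 groups compared (up to 0.113 by limma) and a sign that turned to 0.04 without scaling factors. In KO_secGAA compared with KO_PBS 3 of the 15 fell, Sln (log2 -1.43 ± 0.31, limma adjusted p = 0.0387), Popdc2 (-0.68 ± 0.15, limma adjusted p = 0.0434) and Popdc3 (-0.59 ± 0.12, limma adjusted p = 0.0283). Sln held without WT_PBS 1, KO_PBS 3 or KO_secGAA 1, Popdc2 without WT_PBS 1 or KO_secGAA 3, and Popdc3 without WT_PBS 1, WT_PBS 2 or KO_PBS 3, and each lost its call without any other library (limma adjusted p up to 0.131, 0.144 and 0.0949). Sln stayed higher in KO_secGAA than in WT_PBS (log2 2.30 ± 0.31, limma adjusted p = 0.00616).

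Of the 15 adult counterpart isoforms 4 rose in KO_PBS compared with WT_PBS, all of the slow or slow and cardiac type (Myh7, Tnnt1, Tnni1 and Tnnc1), and 4 of the fast type fell (Tnnc2, Tnni2, Myl1 and Tnnt3). These counts depended on the fit: edgeR and DESeq2 each called 4 higher and 7 lower, voom 1 higher and 7 lower, limma without scaling factors 4 higher and 1 lower, and fits with a mouse left out 0 to 5 higher and 1 to 6 lower. Myh7 rose by log2 5.62 ± 1.32 (SE; limma adjusted p = 0.0143, and 0.0588 without WT_PBS 3), and the 3 slow troponin genes lost their calls without WT_PBS 1, WT_PBS 3, KO_PBS 1 or KO_PBS 2 (limma adjusted p up to 0.0852). Tnnc2 fell by 0.79 on the log2 scale (SE 0.15, limma adjusted p = 0.00564) and Tnni2 by 0.61 (SE 0.16, limma adjusted p = 0.0216, lost without WT_PBS 3, KO_PBS 2 or KO_PBS 3). Under quantile normalization none of these 4 fast genes passed, and the sign of Tnni2 turned to 0.07.

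Of 28 other Z-disc and titin-associated genes, the surroundings of Csrp3 and Ankrd1, 9 fell and 1 rose in KO_PBS compared with WT_PBS (4 to 8 fell and 0 to 2 rose with each mouse left out), with a median log2 fold change of -0.18. The methyltransferase genes Smyd2 (log2 -0.98 ± 0.18 SE, limma adjusted p = 0.00475) and Smyd1 (-0.76 ± 0.10, limma adjusted p = 0.000808) and the Z-disc gene Ldb3 (-0.66 ± 0.10, limma adjusted p = 0.00179) fell and held with each mouse left out. Nrap rose (0.46 ± 0.12, limma adjusted p = 0.0206), and lost its call without KO_PBS 1 or KO_PBS 2 (up to 0.0618 by limma). The direction of this list turned on scaling: without scaling factors 7 rose and 3 fell. In KO_secGAA compared with KO_PBS 3 rose, Fhl3, Myoz3 and Smyd1, each of which lost its call in at least 6 of the 9 fits with a mouse left out.

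Of 25 tested regulators of embryonic and cardiac muscle genes 3 changed in KO_PBS compared with WT_PBS, where 21.9% of all genes changed. Wwtr1, a partner of TEAD factors, rose (log2 0.57 ± 0.10 SE, limma adjusted p = 0.00428). Sox6, which in mice represses slow and embryonic fibre genes (log2 -0.47 ± 0.11, limma adjusted p = 0.0164, lost without WT_PBS 3, KO_PBS 1 or KO_PBS 2), and Mkl1, a cofactor of serum response factor (-0.86 ± 0.26, limma adjusted p = 0.0416, held without WT_PBS 1 or KO_PBS 3 and lost without any other library), fell. Without scaling factors 8 of the 25 rose and 0 fell. The cardiac transcription factor genes Myocd, Gata4, Nkx2-5, Tbx5 and Hand2 were not analysed here. Of 8 tested partners of NCAM and genes of its polysialylation 2 rose, the kinase gene Fyn (log2 1.26 ± 0.16 SE, limma adjusted p = 0.000687) and the receptor gene Gfra1 (0.92 ± 0.28, limma adjusted p = 0.0424, held without WT_PBS 1, KO_PBS 2 or KO_secGAA 3 and lost without any other library).

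**Figure D5:**
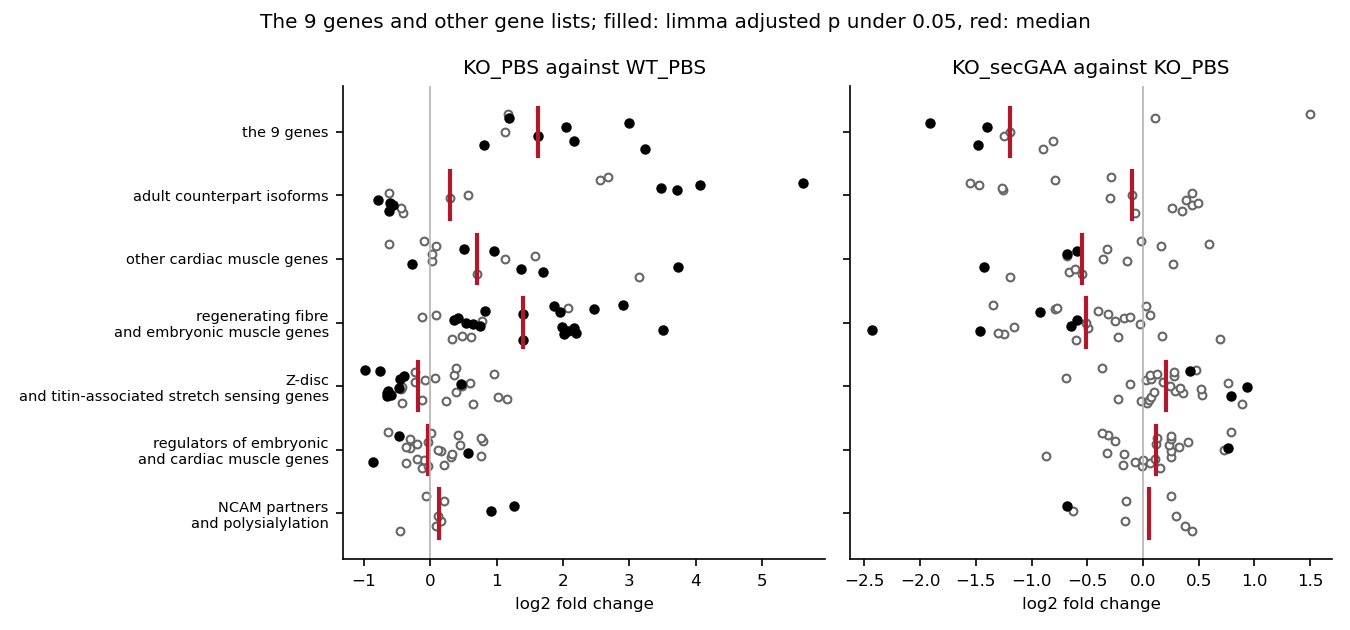
Log2 fold changes (x axes) of each tested gene of the 9 and of 6 lists of related genes in KO_PBS against WT_PBS (left) and KO_secGAA against KO_PBS (right); filled points passed a limma adjusted p of 0.05 and red lines are medians. On the left the medians of the 9 genes (1.63) and of the regenerating fibre genes (1.39) lie farthest to the right; on the right the median of the 9 genes is -1.19.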

How the data were processed

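RNA-seq of quadriceps was compared between KO_PBS, KO_secGAA and WT_PBS, with 3 mice in each group. The deposited table gives a normalized count signal per gene. Per the submitters' processing notes, CASAVA, cutadapt, RSEM, limma and edgeR were used with the build GRCm38; the notes list no roles or versions. Per the labels' protocols, reads were single-end and 61 bases long, from the NEBNext Ultra RNA kit. The deposited values follow (reads + 0.5) scaled to a TMM-corrected library size: 100% of 118044 values were whole reads on that step within a relative tolerance of 1e-06.

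The main test was limma 3.58.1 (R 4.3.3) with a mean-variance trend on log2(value + 0.5), with a group mean model over all 9 libraries. The filter kept 13089 genes that reached a value of 1 in 3 libraries, with Benjamini-Hochberg adjustment over all of them and a threshold of 0.05. Fold changes are on that log2 scale, which understates changes of low genes. On the recovered reads, edgeR 4.0.16 quasi-likelihood called 2841 genes for KO_PBS against WT_PBS, 445 for KO_secGAA against KO_PBS and 503 for KO_secGAA against WT_PBS, where limma called 2867, 481 and 487. DESeq2 1.42.0, limma voom, pseudocounts of 0.1 and 1, no filter, a filter at 5, no scaling factors, quantile normalization, fits of 2 groups and fits without each mouse were alternatives. The fit was tested on simulated data. Levels per kilobase used the longest principal transcript of the GENCODE annotation of GRCm38, which also gave coordinates. The 9 genes and all lists were chosen with earlier results of these data known. Named genes were the 9, Gaa, the adult partners, up to 4 passing genes per list by p and the 2 nearest genes by pattern, of which 1 is not reported here; further genes of small counts were named after their values were seen. The labels do not identify the animals, so p-values measure the spread between these samples. A floor of 3 reads is 0.196 to 0.276 normalized counts and covers counting error only.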

Additional observations from a re-analysis of the deposited data

How the results depend on the processing

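In KO_PBS against WT_PBS, Myl4, Tnnt2, Myh3, Nes and Ncam1 passed in each of the 19 alternative fits, and in KO_secGAA against KO_PBS so did Actc1, Nes and Ncam1. The number of the 9 genes that passed ran from 5 to 7 in the first comparison and from 3 to 4 in the second. In KO_secGAA against WT_PBS, where 3 passed, it was 5 without scaling factors, 7 by DESeq2, 1 by limma voom and 0 to 3 with a mouse left out. Over all genes, KO_PBS against WT_PBS gave 4983 calls without scaling factors and 1744 to 2847 with a mouse left out. KO_secGAA against KO_PBS gave 959 without scaling factors, 798 by DESeq2, 316 with only the 2 groups compared and 159 to 568 with a mouse left out, and KO_secGAA against WT_PBS gave 1007, 1022 by DESeq2 and 94 to 503. The cause of these shifts was not tested.

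Some signs turned. Ankrd1 in KO_secGAA against KO_PBS was -0.047 without scaling factors and -0.069 to 0.28 with a mouse left out, and Myh8 in KO_secGAA against WT_PBS was 0.10 without scaling factors and -0.39 to 0.47 with a mouse left out. In KO_PBS against WT_PBS, Tnni2 was 0.07, Myh4 0.11 and Tnnt3 0.21 under quantile normalization, where the main values were -0.61, -0.63 and -0.56, and Hrc 0.042 without scaling factors. The pseudocount and the filter on low values changed no call of the 9 genes. No paired analysis was possible because the sample numbers in the labels are not shared between groups. With 3 mice a group, a log2 difference of the wide genes Csrp3 and Myh8 is known only to within intervals that span more than 2 log2 units.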
